A study of Homo sapiens with 12 samples.

Results

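Untreated MV4-11 and untreated OCI-AML3 cells were compared by the open chromatin regions that their ATAC-seq libraries called. ATAC-seq cuts accessible DNA with the Tn5 transposase, and a peak is a place where the reads pile up over the local background. The series holds 12 such libraries of 3 human acute myeloid leukaemia lines, as controls and after 16 h with 500 nM VTP50469, an inhibitor of menin. The comparison here took the 4 control libraries, 2 of MV4-11 and 2 of OCI-AML3. MV4-11 carries a rearranged MLL1 gene (KMT2A, fused to AFF1) and was grown in IMDM with serum, whereas OCI-AML3 carries mutant NPM1 with unrearranged MLL1 and was grown in RPMI with serum. Cells of both lines had been frozen before nuclei were isolated, and the labels call these libraries controls without naming a vehicle. Each genotype was represented by 1 line, so genotype, line, supplier (ATCC for MV4-11, DSMZ for OCI-AML3) and medium cannot be told apart, and nothing says whether the 2 libraries of a line came from separate cultures.

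Peaks on chromosomes 1 to 22 were used. Each library was cut to the 69119 peaks of the smallest one by −log10 p, and overlapping peaks (1 bp or more) were merged into regions. This gave 123608 regions, of 203329 when all peaks of the same 4 libraries were merged and of 328658 over all 12 libraries.

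MLL1 is a histone methyltransferase that is held at its target genes by the adaptor menin, and it maintains HOX gene transcription in blood progenitors. Fusions of MLL1 keep the menin binding part and drive HOXA genes, MEIS1 and other progenitor genes. Mutant NPM1 is displaced to the cytoplasm, and leukaemias that carry it also express HOXA and HOXB genes and MEIS1 in a manner that depends on menin and wild-type MLL1. Open promoters mark genes that can be transcribed, and open sites far from promoters include most enhancers, which differ more between cell types than promoters do.

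A region or promoter is called MV4-11-only where both MV4-11 controls and neither OCI-AML3 control had a peak after the cut, and OCI-AML3-only in the reverse case. Of 31313 protein-coding and lncRNA genes, 567 (1.81%) had an MV4-11-only promoter and 645 (2.06%) an OCI-AML3-only promoter, where a promoter was the 1 kb on each side of the start site. Their sequences are shown because the base composition of these sets, which rest on the cut, was unlike. RefSeq promoter sequences (GRCh38.p14, 250 bases before to 50 after the start) were matched for 429 MV4-11-only, 478 OCI-AML3-only and 23904 promoters in all. The median promoter held 6 CpG dinucleotides in the MV4-11-only set and 24 in the OCI-AML3-only set, with 53.7% and 65.5% G and C, beside 27 CpG in promoters open in all 4 libraries, 4 in those open in none and 13 over all. The OCI-AML3-only median was thus nearer that of promoters open in all 4 libraries, and the MV4-11-only median nearer that of promoters called in none. The OCI-AML3-only set holds many commonly open promoters, since 217 of the 645 were open in all 4 libraries with all peaks, whereas 282 kept the state, as did 500 of the 567 MV4-11-only promoters. Among matched promoters that kept the state, a split added after the data were seen, the median was 6 CpG for MV4-11 (371 promoters) and 23 for OCI-AML3 (218 promoters). The sequence window is narrower than the 1 kb on each side that set the state, so it can lie outside the open region. The printed windows of BID and HOXA7 do not overlap their line-only regions (chr22:17774256-17774564 and chr7:27155989-27156296). The sequences below are in lower case, 5′ to 3′ on the gene's strand, with each CpG in capitals.

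From the MV4-11-only set, ARRDC4 (chr15:97960453-97960752, plus strand, 24 CpG) was the strongest by −log10 p and is CpG-rich, CD86 (chr3:122055112-122055411, plus strand, 3 CpG) is a listed monocyte gene, BID (chr22:17774616-17774915, minus strand, 6 CpG) has the median count of the set, and HOXA4 (chr7:27130708-27131007, minus strand, 27 CpG) is the HOXA member.

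ARRDC4: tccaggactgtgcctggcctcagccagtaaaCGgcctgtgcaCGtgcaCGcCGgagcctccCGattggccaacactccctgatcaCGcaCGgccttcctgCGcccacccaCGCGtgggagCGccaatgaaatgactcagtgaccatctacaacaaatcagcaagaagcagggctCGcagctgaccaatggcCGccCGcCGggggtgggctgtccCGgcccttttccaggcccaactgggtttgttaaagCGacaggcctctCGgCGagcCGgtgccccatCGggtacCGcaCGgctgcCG

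CD86: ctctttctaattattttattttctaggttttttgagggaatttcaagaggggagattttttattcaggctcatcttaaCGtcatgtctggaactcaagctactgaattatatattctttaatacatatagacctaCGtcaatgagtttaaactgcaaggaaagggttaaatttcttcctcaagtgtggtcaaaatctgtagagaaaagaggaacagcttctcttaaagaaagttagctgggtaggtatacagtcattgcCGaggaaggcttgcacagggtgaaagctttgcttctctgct

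BID: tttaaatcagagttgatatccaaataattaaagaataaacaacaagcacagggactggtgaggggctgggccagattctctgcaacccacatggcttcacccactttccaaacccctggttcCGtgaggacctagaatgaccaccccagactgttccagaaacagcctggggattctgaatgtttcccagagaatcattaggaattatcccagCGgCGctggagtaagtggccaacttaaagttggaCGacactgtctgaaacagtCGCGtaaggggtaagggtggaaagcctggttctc

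HOXA4: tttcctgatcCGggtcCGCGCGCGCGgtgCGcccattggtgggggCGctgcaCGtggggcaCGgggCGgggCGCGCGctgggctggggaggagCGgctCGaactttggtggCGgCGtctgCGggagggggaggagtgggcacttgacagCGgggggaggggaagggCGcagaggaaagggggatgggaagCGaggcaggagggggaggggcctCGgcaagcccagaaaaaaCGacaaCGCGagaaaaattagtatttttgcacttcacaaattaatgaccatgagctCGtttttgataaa

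From the OCI-AML3-only set, HOXA7 (chr7:27156626-27156925, minus strand, 31 CpG) is a HOXA member, DNAH14 (chr1:224929404-224929703, plus strand, 21 CpG) had no peak in MV4-11, and NKX6-1 (chr4:84499243-84499542, minus strand, 24 CpG) has the median count of the set.

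HOXA7: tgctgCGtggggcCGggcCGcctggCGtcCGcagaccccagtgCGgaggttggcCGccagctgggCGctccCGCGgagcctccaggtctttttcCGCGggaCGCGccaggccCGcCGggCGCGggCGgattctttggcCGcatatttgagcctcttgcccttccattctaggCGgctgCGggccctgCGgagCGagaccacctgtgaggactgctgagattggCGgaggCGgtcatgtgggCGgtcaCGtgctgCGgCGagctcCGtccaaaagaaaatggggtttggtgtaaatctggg

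DNAH14: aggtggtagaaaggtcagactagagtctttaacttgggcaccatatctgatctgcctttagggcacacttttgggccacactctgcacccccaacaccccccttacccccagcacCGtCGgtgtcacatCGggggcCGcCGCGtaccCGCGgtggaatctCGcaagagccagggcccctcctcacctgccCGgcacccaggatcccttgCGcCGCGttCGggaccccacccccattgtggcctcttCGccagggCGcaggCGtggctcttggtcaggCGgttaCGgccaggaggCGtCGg

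NKX6-1: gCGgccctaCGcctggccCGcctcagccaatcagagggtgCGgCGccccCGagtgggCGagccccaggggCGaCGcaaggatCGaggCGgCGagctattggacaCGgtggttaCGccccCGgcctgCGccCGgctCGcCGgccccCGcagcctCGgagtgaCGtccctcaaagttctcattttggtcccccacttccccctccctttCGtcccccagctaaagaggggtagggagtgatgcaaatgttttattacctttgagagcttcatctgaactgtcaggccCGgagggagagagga

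ARRDC4 and HOXA4 are exceptions to the low CpG count of their set, and the CD86 and BID promoters show what that count looks like along 300 bases.

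The 2 lines shared a core of open chromatin, and MV4-11 had more regions of its own than OCI-AML3. In all, 29122 regions (23.6%) were called in all 4 libraries. The 15524 regions called in both MV4-11 controls and in neither OCI-AML3 control made up 12.6% of all regions, and the 5669 with the reverse pattern made up 4.59%. These are counts without a test, since 2 libraries against 2 cannot reach an exact two-sided p below 0.333.

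**Figure D1:**
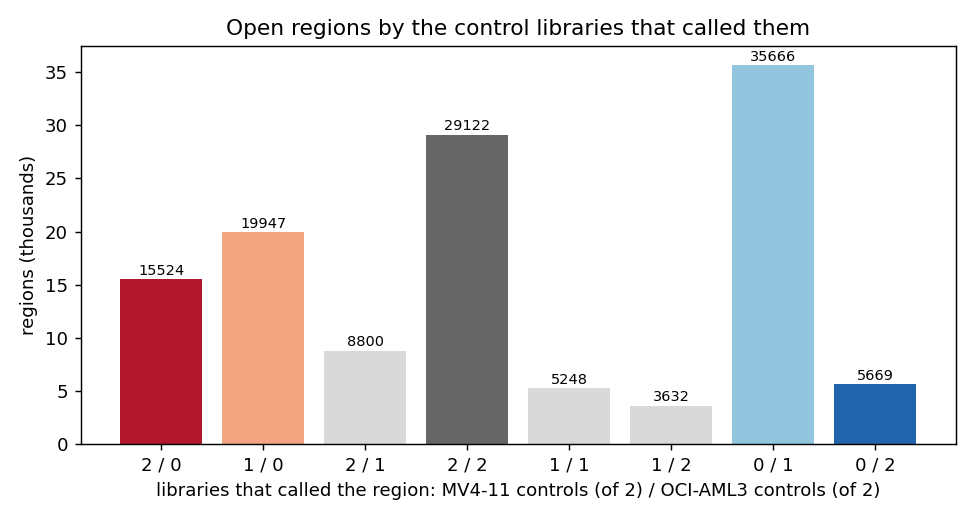
Number of regions, in units of 1000, by how many of the 2 MV4-11 controls and how many of the 2 OCI-AML3 controls called them. The line-only regions stand at the outer ends, with 15524 called in both MV4-11 libraries alone and 5669 called in both OCI-AML3 libraries alone, and 35666 regions were called in a single OCI-AML3 library alone.

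The libraries of the lines did not call equally many peaks and were not equally repeatable, and these counts should be read with that in mind. Before the cut the MV4-11 controls held 122425 and 128880 peaks and the OCI-AML3 controls 69119 and 92554. The median peak had 12 and 13 reads over its summit in the MV4-11 controls and 10 and 9 in the OCI-AML3 controls. After the cut, the weakest peak kept had a −log10 p of 8.60 and 9.28 in the MV4-11 controls, and of 3.54 and 5.40 in the OCI-AML3 controls. Replicates of MV4-11 shared 65.0% of the regions called in either, replicates of OCI-AML3 shared 43.6%, and libraries of different lines shared 36.3% to 41.4%. The difference between lines thus stood well apart from replicate disagreement for MV4-11 and only slightly apart for OCI-AML3.

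The cut made the line-only classes unequal in what they leave out. Of the MV4-11-only regions, 93.1% had no peak in either full OCI-AML3 list. Of the OCI-AML3-only regions, 51.7% had no peak in either full MV4-11 list, 26.1% had a peak in 1 of them and 22.2% had a peak in both that the cut had removed. An OCI-AML3-only region is therefore one that ranked higher there, and for 1258 of them MV4-11 had weaker peaks in both libraries. Without the cut the counts were 36223 MV4-11-only and 3564 OCI-AML3-only regions. Asking for 1 library of a line in place of both raised its count, to 25884 and 26163 MV4-11-only regions without MV4-11 control 1 or 2, and to 37092 and 25466 OCI-AML3-only regions without OCI-AML3 control 1 or 2. Without OCI-AML3 control 1 there were 27594 MV4-11-only regions. Leaving out that library also loosened the cut, to the 92554 peaks of OCI-AML3 control 2, so these counts mix both changes. A region without a peak was not detected in these libraries and need not be closed.

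The line-only regions differed in where they lay. Promoters (within 1 kb of a start site) made up 4.70% of the MV4-11-only regions and 13.7% of the OCI-AML3-only regions, beside 35.3% of the regions called in all 4 libraries and 13.5% of every region. The median distance to a start site was 28.1 kb for MV4-11-only and 26.1 kb for OCI-AML3-only regions, and 9.34 kb for those of all 4 libraries. The MV4-11-only regions were also wider, with a median of 334 bp against 241 bp for OCI-AML3-only regions. Before the cut the median peak was also wider in the MV4-11 controls (186 and 193 bp) than in the OCI-AML3 controls (154 and 144 bp).

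The strongest MV4-11-only regions had folds of 12.7 to 21.8, above the medians of 10.2 and 10.6 that the MV4-11 controls had over the regions called in all 4 libraries. Fold here is the deposited ratio of reads over the summit to the local background of the same library, which was not normalised between libraries. The region at the start of ARRDC4, which encodes an arrestin domain protein that helps remove membrane proteins (chr15:97960176-97961167, hg38), had a fold of 14.4 in each MV4-11 control and no peak in either OCI-AML3 control. The promoter of CHFR, a ubiquitin ligase of a mitotic checkpoint (chr12:132887175-132888232), had folds of 16.2 and 19.1 in MV4-11 and no peak in OCI-AML3. The promoter of SNX19, a sorting nexin (chr11:130916092-130916771), had folds of 15.8 and 20.4 in MV4-11 and no peak in OCI-AML3. All 3 promoters were open in MV4-11 with folds above 14 in each library, while OCI-AML3 had no peak there even in its full lists.

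Of the 10 strongest MV4-11-only regions, 4 were promoters, including that of the antisense RNA ZNF790-AS1 with folds of 21.8 and 21.5. Others lay within the loci of PDCD1LG2, a ligand of the PD-1 receptor on T cells (chr9:5558157-5558666, folds of 15.8 and 17.5 in MV4-11), and SFRP1, a secreted antagonist of Wnt ligands (chr8:41276031-41276626, folds of 16.5 and 18.8). Whether such sites fall in exons or introns was not resolved. The remaining 4 lay in the loci of PLEKHB2 and UBAP1L and nearest the start sites of LOC105373610 and XIRP2, with folds between 12.7 and 20.6. In the full lists of the treated libraries, all 10 had peaks in both MV4-11 libraries and none in an OCI-AML3 library.

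The strongest OCI-AML3-only regions reached similar folds. A site 251 kb into the locus of CNIH3, an auxiliary subunit of glutamate receptors (chr1:224684804-224685567), had no peak in either MV4-11 control and folds of 13.8 and 15.4 in the OCI-AML3 controls. The promoter of EFNB2, a membrane ligand of Eph receptors (chr13:106535391-106536254), had folds of 11.1 and 14.1 in OCI-AML3, and a site in the locus of RBPJ, the nuclear effector of Notch signalling (chr4:26140138-26140551), 13 and 12. Promoters of CA2, a carbonic anhydrase (folds of 11.0 and 10.6), and of the axonemal dynein DNAH14 (13.7 and 18.7) were also among the 10. In these regions MV4-11 had no peak in its full lists. The full MV4-11 lists did hold a peak of fold 4.52 and 5.51 elsewhere within 1 kb of the EFNB2 start, so that promoter was weaker rather than uncalled. The other 5 of the 10 lay in the ARHGAP32 locus or nearest LOC105375473, LOC102723561, LINC02224 and MILR1, and only the MILR1 region had peaks in the full MV4-11 lists, with folds of 4.40 and 6.15 against 13.9 and 17.1 in OCI-AML3. In the full lists of the treated libraries, all 10 had peaks in both OCI-AML3 libraries. The treated MV4-11 libraries also had peaks, in both for MILR1 (6.0 and 6.54) and in 1 of them for CA2, LOC105375473, LOC102723561 and ARHGAP32 (folds of 3.6 to 4.8).

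MOLM13, the other MLL1-rearranged line of the series, was not used in choosing the regions. For the shares of each class, its controls were cut to 67424 peaks each. Both MOLM13 controls then called 27.6% of the MV4-11-only regions, 14.9% of the OCI-AML3-only regions and 84.7% of the regions of all 4 libraries. Neither called 46.9%, 67.8% and 6.22% of these. The MV4-11-only class was therefore split in MOLM13. What the MLL1 genotype adds to these shares was not tested. Named regions were looked up in the full MOLM13 lists, without the cut. The ARRDC4, CHFR and SNX19 promoters had folds of 10.4 to 13.4 in MOLM13. The OCI-AML3-only promoters of CA2 (10.2 and 9.55) and EFNB2 (8.87 and 10.2) were also open in MOLM13. Of the 10 strongest regions, 7 of the MV4-11-only and 2 of the OCI-AML3-only ones had a peak in both full MOLM13 control lists. These counts and the class shares above thus rest on unlike thresholds.

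The treated libraries of the same lines gave a second look at each class. Of the MV4-11-only regions, 7803 (50.3%) were again called in both treated MV4-11 libraries and in neither treated OCI-AML3 library, and 65 (0.419%) had the reverse pattern. Of the OCI-AML3-only regions, 2274 (40.1%) were called in both treated OCI-AML3 and neither treated MV4-11 library, and 50 (0.882%) had the reverse pattern. Each treated library had been cut to 67424 peaks. Reversals were thus few beside the regions that repeated the pattern.

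Among the 29122 regions called in all 4 libraries, the ranks of the folds were compared. Ranks within each library were turned into normal scores (units of 1 SD of the rank distribution), and the difference MV4-11 minus OCI-AML3, called the shift, was tested with limma and Benjamini-Hochberg adjustment over all regions tested. At an adjusted p under 0.05, 408 regions (1.4%) were stronger in MV4-11 and 195 (0.67%) were stronger in OCI-AML3, with shifts of 1.77 to 4.62 and of 1.78 to 3.0 in size. An unadjusted p under 0.05 was found for 6200 regions. The median shift over all regions was −0.07.

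**Figure D2:**
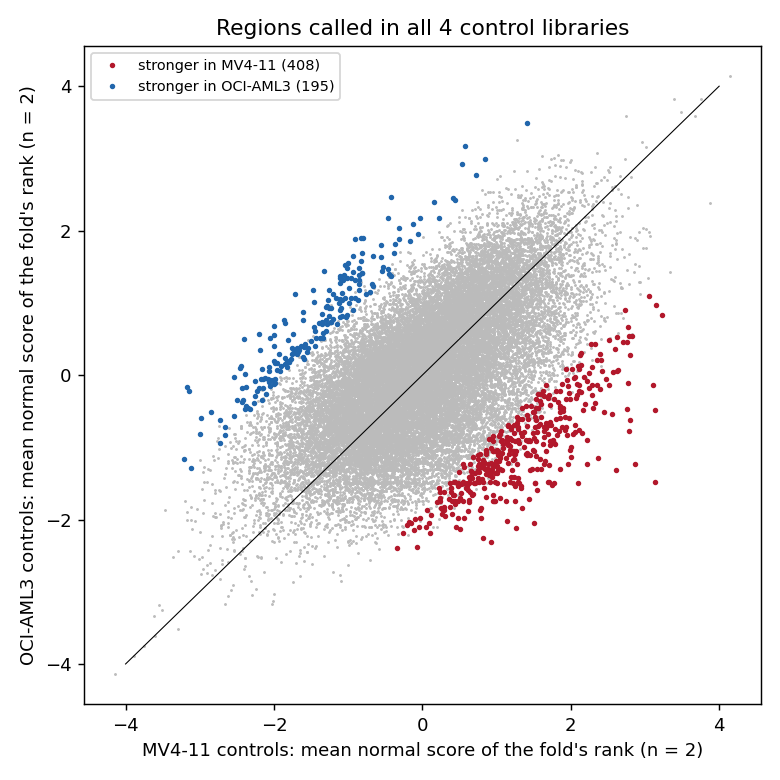
Mean normal score of the fold's rank in the MV4-11 controls (x axis) and in the OCI-AML3 controls (y axis) for the 29122 regions called in all 4 libraries, with a line at equal scores. The 408 regions stronger in MV4-11 lie below the line and the 195 stronger in OCI-AML3 above it, and the most extreme MV4-11 points are farther from the line than those of OCI-AML3.

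The largest shift lay in the locus of DYRK1A, a kinase encoded on chromosome 21. That region (chr21:37435101-37435462) had folds of 26.4 and 22.7 in MV4-11, against 4.28 and 5.28 in OCI-AML3, a shift of 4.62 (SE 0.433, n = 2 libraries each, limma adjusted p = 0.00634). A region in the locus of TMPRSS15, which encodes the intestinal protease enteropeptidase, had folds of 22.5 and 22.7 in MV4-11, against 4.90 and 5.28 in OCI-AML3 (shift 4.10, SE 0.408, limma adjusted p = 0.00634). In the locus of ANKRD44, a regulatory subunit of a protein phosphatase, the folds were 18.5 and 19.5 in MV4-11, against 4.90 and 4.62 in OCI-AML3. These regions were picked by the size of their shift, and in each both MV4-11 values were more than 3 times both OCI-AML3 values. The other 7 of the 10 largest shifts lay in the loci of ASAH2, FBXO38 and COL24A1 and nearest LOC105369682, MTSS1, CLXN and EFR3A, with shifts of 3.42 to 3.92. None of the 10 was a promoter. In the full lists both MOLM13 controls had a peak in 9 of the 10, and 1 of them in the tenth.

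The regions stronger in OCI-AML3 had smaller shifts and were more often promoters. The region near CLVS1 (chr8:60911630-60911998) had folds of 3.43 and 4.06 in MV4-11, against 6.94 and 8.09 in OCI-AML3 (shift −3.0, SE 0.418, limma adjusted p = 0.0179). The region in the locus of CXXC5, a zinc finger protein that binds unmethylated CpG, had folds of 3.79 and 3.78 in MV4-11, against 6.41 and 8.48 in OCI-AML3 (shift −2.92, SE 0.411). In the locus of BHLHE40, a basic helix-loop-helix repressor (chr3:4986637-4987233), they were 4.61 and 4.76 in MV4-11, against 10.1 and 9.75 in OCI-AML3 (shift −2.91, SE 0.419). The only promoter among the 10 was that of ULBP3, a ligand of the natural killer receptor NKG2D, with 5.35 and 6.37 in MV4-11, against 15.5 and 8.97 in OCI-AML3 (shift −2.84, SE 0.605, limma adjusted p = 0.0418). These 4 regions were picked by the size of their shift, so the lack of overlap between values of the 2 lines adds no support. The other 6 lay in the loci of SGCZ, ITPR1 and PDZD2 and nearest LOC105377891, LINC01611 and LINC01608, with shifts of −2.70 to −2.89. Without MV4-11 control 1 the call was lost for 7 of these 10 regions, and without MV4-11 control 2 for 3, while the 10 stronger in MV4-11 kept it without any 1 library. In the treated libraries 3 of the 6 with a value passed the test, and none of the 4 with a value among the 10 stronger in MV4-11. Over all calls, promoters were 6.86% of the regions stronger in MV4-11 and 23.1% of those stronger in OCI-AML3, against 35.3% of the regions tested.

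The treated libraries had a value for 222 of the 408 regions stronger in MV4-11, and 212 of these (95.5%) shifted the same way, with a median of 1.42. Of the 195 regions stronger in OCI-AML3, 133 had a value and 126 (94.7%) shifted the same way, with a median of −1.30. A value needed a peak in every treated library, and these libraries are of the same lines. The share that shifted the same way over all tested regions was not computed. The count of calls depended on which replicate was present. Without MV4-11 control 1 or 2 the fit called 68 or 79 regions stronger in MV4-11 and 8 or 22 stronger in OCI-AML3, and without OCI-AML3 control 1 or 2 it called 2077 or 1792 and 1095 or 942. A lone library adds nothing to the estimate of spread, which the remaining pair then sets. Without OCI-AML3 control 1 the cut was also looser, at 92554 peaks per library.

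At the level of genes, promoters open in 1 line only were few beside those shared. Of the 567 MV4-11-only and 645 OCI-AML3-only promoters, 282 and 459 were of protein-coding genes, beside 10182 open in all 4 libraries and 6237 in none. With all peaks in place of the cut, 247 of the 282 MV4-11-only protein-coding promoters kept that state, whereas 189 of the 459 OCI-AML3-only ones did and 164 became open in all 4 libraries.

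After ARRDC4, CHFR and SNX19, the strongest protein-coding promoters open in MV4-11 only were those of the zinc finger genes ZNF772, ZNF285, ZNF160 and ZNF568, of GOT1, the cytosolic aspartate aminotransferase, of the kinase gene DYRK1B, and of IGFL3. Their folds lay between 10.9 and 21.4 in the MV4-11 controls, and OCI-AML3 had no peak there in its full lists. Of these 10 promoters, 6 were on chromosome 19. Chromosome 19, which is rich in zinc finger genes, held 17.7% of the 282 MV4-11-only promoters and 5.2% of the 459 OCI-AML3-only ones, beside 7.5% of all protein-coding genes. Genes whose symbol starts with ZNF made up 7.1% and 4.1% of these promoters and 2.7% of all protein-coding genes, a grouping chosen after the values were seen.

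The strongest OCI-AML3-only protein-coding promoters after CA2, EFNB2 and DNAH14 were those of LDHC, the testis form of lactate dehydrogenase (folds of 12.8 and 14.3 in OCI-AML3), CYP2U1, a cytochrome P450 (10.9 and 13.4), NKX6-1, a homeobox factor of islets and the neural tube (8.66 and 9.11), GHR, the growth hormone receptor (12.5 and 10.3), TPBGL, FAT4, an atypical cadherin, and EPHX2, soluble epoxide hydrolase (11.4 and 17.8). Most of these genes are better known from other tissues than blood. The full MV4-11 lists held a peak near the EFNB2 start in both libraries and near those of CYP2U1 and TPBGL in 1 library, with a fold of 3.64 and 3.83, and none near the other 7.

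Short motifs of blood transcription factors were searched on both strands of the RefSeq promoter windows of the line-only promoters. Such a window can lie outside the region that made the promoter line-only. The AP-1 letters TGANTCA stood in 12.4% of the MV4-11-only and 5.23% of the OCI-AML3-only promoters, beside 7.81% of all promoters. The PU.1 letters GAGGAAGT, which mark sites of the main myeloid ETS factor, stood in 5.13% of the MV4-11-only and 1.88% of the OCI-AML3-only promoters, beside 2.46% of all. The RUNX letters TGTGGT stood in 17.5% and 8.79%, beside 13.2% of all, the GATA letters AGATAA in 12.8% and 7.32%, beside 10.7%, and the HOX-PBX letters TGATNNAT in 9.79% and 6.07%, beside 7.79%. The C/EBP letters TTGCNNAA stood in 11.2% and 8.58%, beside 10.7%, the IRF letters GAAANNGAA in 10.5% and 5.86%, beside 8.35%, and the E-box letters CANNTG in 74.4% and 63.0%, beside 69.3%. All 8 shares were higher in the MV4-11-only than in the OCI-AML3-only set, and base composition moved with this. Its part was not tested. Promoters called in no library, which are also poor in CpG, held more GATA (16.1%), HOX-PBX (12.1%), C/EBP (13.8%) and E-box letters (77.8%) than the MV4-11-only set, and 16.8% RUNX, 10.1% IRF, 10.5% AP-1 and 2.14% PU.1 letters. Overlaps between motifs were not removed. The windows below show the AP-1 match of ARRDC4, which starts 119 bases before the start site (chr15:97960569-97960605), and the PU.1 match of ZNF772, read on the opposite strand, which starts 3 bases after it (chr19:57477541-57477578), with the match in capitals.

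ARRDC4 AP-1: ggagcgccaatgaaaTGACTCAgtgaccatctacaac

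ZNF772 PU.1: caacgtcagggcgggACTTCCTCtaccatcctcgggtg

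No promoter of the genes at the centre of the 2 genotypes passed the test. Few promoters of any gene did, with 32 stronger in MV4-11 and 47 stronger in OCI-AML3 among 12828 tested. The promoters of KMT2A (MLL1), AFF1, its fusion partner in MV4-11, NPM1, MEN1, which encodes menin, and MEIS1, a cofactor of HOX proteins, were open in all 4 libraries. MEIS1 had folds of 8.39 and 8.99 in MV4-11, against 7.41 and 7.36 in OCI-AML3 (shift −0.29, SE 0.415, limma adjusted p = 0.715). The shift compares ranks, and folds over the shared regions ran higher in MV4-11 (medians of 10.2 and 10.6, against 7.40 and 8.69 in OCI-AML3). A higher fold in MV4-11 can thus hold a lower rank. KMT2A had 9.83 and 7.99 in MV4-11, against 8.13 and 9.86 in OCI-AML3 (shift −0.69, SE 0.429, limma adjusted p = 0.375), so its values overlapped. The largest of these shifts was that of AFF1, at −1.02 (SE 0.423, limma adjusted p = 0.195). All 16 promoters of the menin and MLL1 complex list were open in all 4 libraries, beside 10182 of 18783 protein-coding promoters. None of the 16 passed the test, which few promoters did.

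Within the MEIS1 locus 17 regions were found. MV4-11 alone called 2 of them, 73.6 kb into the gene (chr2:66508142-66508837, folds of 13 and 9.71) and 105 kb into it (chr2:66539547-66539723, 7.81 and 7.93), and OCI-AML3 alone called 1, lying at 42.2 kb (chr2:66477156-66477316, 4.37 and 4.40). None of these 3 had a peak in the full lists of the other line. Over every region 12.6% were MV4-11-only and 4.59% OCI-AML3-only, and 2 and 1 among 17 are close to those shares.

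In the HOX clusters some members had line-only promoters and others were open in all 4 libraries. Of the 25 regions of the HOXA cluster, 3 (12%) were MV4-11-only and 6 (24.0%) OCI-AML3-only. Of the 17 of the HOXB cluster, 1 (5.88%) and 4 (23.5%) were, beside 12.6% and 4.59% of every region. The promoter of HOXA4 was open in MV4-11 only, with folds of 6.65 and 11.4. Those of HOXA2 (3.99 and 5.55 in OCI-AML3) and HOXA7 (5.18 and 4.47) were open in OCI-AML3 only, with no peak in the full MV4-11 lists. The −log10 p was 4.98 and 7.65 at HOXA2 and 10.1 and 7.79 at HOXA7. The weakest peaks kept in the MV4-11 controls had 8.60 and 9.28. HOXA11 was OCI-AML3-only after the cut with 4.82 and 6.05, but the full MV4-11 lists held peaks of 3.26 and 4.30. The promoter of HOXA9, the HOX gene most tied to leukaemia, was not line-only, with a peak of fold 4.22 in MV4-11 control 1 alone and of 4.84 and 4.68 in the OCI-AML3 controls in the full lists. HOXA10 and HOXA13 were open in all 4 libraries. The HOXA13 promoter also held the strongest of the 6 OCI-AML3-only regions (chr7:27199974-27200631, folds of 7.92 and 11.1), where the full MV4-11 lists had peaks of 4.41 and 4.09. HOXA10, a neighbour of HOXA9 with the same role in progenitors, had a shift of 0.18 (limma adjusted p = 0.873).

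Within the cluster, a region in the HOXA5 locus, 7.14 kb from its start (chr7:27136094-27136682) had folds of 8.84 and 9.56 in MV4-11 and no peak in OCI-AML3. A neighbouring pair at the start of the antisense RNA HOXA-AS3, chr7:27139446-27139663 and chr7:27139755-27140400, had no peak in MV4-11 and folds of 4.77 and 4.27, and of 5.87 and 5.58, in OCI-AML3. The lines thus differed within 5 kb of each other in the middle of the cluster. In the HOXB cluster, a region of the HOXB6 locus was MV4-11-only (8.12 and 5.96), the HOXB9 promoter was open in OCI-AML3 only (5.19 and 4.58), and so was HOXB13 (4.46 and 7.91) after the cut, although the full MV4-11 lists held peaks of 4.20 and 3.22 there. Of the OCI-AML3-only regions, 4 of 6 in the HOXA cluster and 1 of 4 in the HOXB cluster had no peak in the full MV4-11 lists.

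Loci of 22 known targets of MLL1 and its fusions held 285 regions, of which 28 (9.82%) were MV4-11-only and 24 (8.42%) OCI-AML3-only. The MV4-11-only share was below the 12.6% of every region and the OCI-AML3-only share above its 4.59%, and 26 of the 28 but 8 of the 24 had no peak in the full lists of the other line. Of the 81 regions with a test, 2 were stronger in each line, with a median shift of −0.54. No promoter of the list was line-only and 18 were open in all 4 libraries. Over all genes 1.81% of promoters were MV4-11-only and 2.06% OCI-AML3-only, so none among 22 is near those shares. Of 18783 protein-coding promoters, 10182 were open in all 4 libraries.

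FLT3, the receptor of a cytokine of progenitors, had 6 MV4-11-only and no OCI-AML3-only region among 12, beside 12.6% and 4.59% of every region. The strongest of the 6 (chr13:28047871-28048064, 52.6 kb into the gene) had folds of 10.1 and 10.7 in MV4-11. A further FLT3 region (chr13:28031392-28032529) was stronger in MV4-11, with 13.2 and 13.6 against 4.23 and 6.40 in OCI-AML3 (shift 2.01, SE 0.458, limma adjusted p = 0.0487). Chromosome 13 had the highest MV4-11-only share of all chromosomes. Its part in the FLT3 counts was not tested.

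CDK6, a kinase that drives entry into S phase, had 1 MV4-11-only and 6 OCI-AML3-only regions among 35, beside 12.6% and 4.59% of every region. The one at 98.6 kb (chr7:92737837-92738188) had no peak in MV4-11 and folds of 6.12 and 7.21 in OCI-AML3, while the other 5 had a weaker peak in 1 or both full MV4-11 lists. A region at 42.6 kb was stronger in OCI-AML3 (5.57 and 7.53 in MV4-11, 8.61 and 13.3 in OCI-AML3, shift −2.12, SE 0.472, limma adjusted p = 0.0455).

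JMJD1C, a histone demethylase family gene, had 3 MV4-11-only regions and a region stronger in MV4-11 (13.5 and 15.8 against 5.51 and 4.62 in OCI-AML3, shift 2.35, SE 0.468, limma adjusted p = 0.0372). MEF2C, a transcription factor of progenitors, had 3 MV4-11-only and 2 OCI-AML3-only regions, BCL2, the inhibitor of apoptosis, 3 and 1, RUNX1 3 and 4, TCF4 2 and 2, ZEB2 1 and 2, and IGF2BP2 0 and 2. HOXA10, PBX3 and RUNX2 had 1 MV4-11-only region and no OCI-AML3-only region each, and RUNX2 also had a region stronger in OCI-AML3 (shift −2.02, SE 0.407, limma adjusted p = 0.0379). EYA1 had 1 of each, MYC, LAMP5 and SATB1 had 1 OCI-AML3-only region each, and HOXA9, MYB, SENP6, ZNF521 and CPEB2 had none. These counts per gene are small and carry no test, and 12.6% of every region was MV4-11-only and 4.59% OCI-AML3-only.

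The cells were checked against markers of the myeloid lineage. The promoters of PTPRC, the pan-leukocyte phosphatase CD45, of SPI1 and CEBPA, the main myeloid factors, and of LYZ and CD14 were open in all 4 libraries. The CD33 promoter was called in none. The promoter of MPO, the peroxidase of primary granules, was open in MV4-11 only, with folds of 6.47 and 7.08. Line-only shares differed more between lists of other genes.

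**Figure D3:**
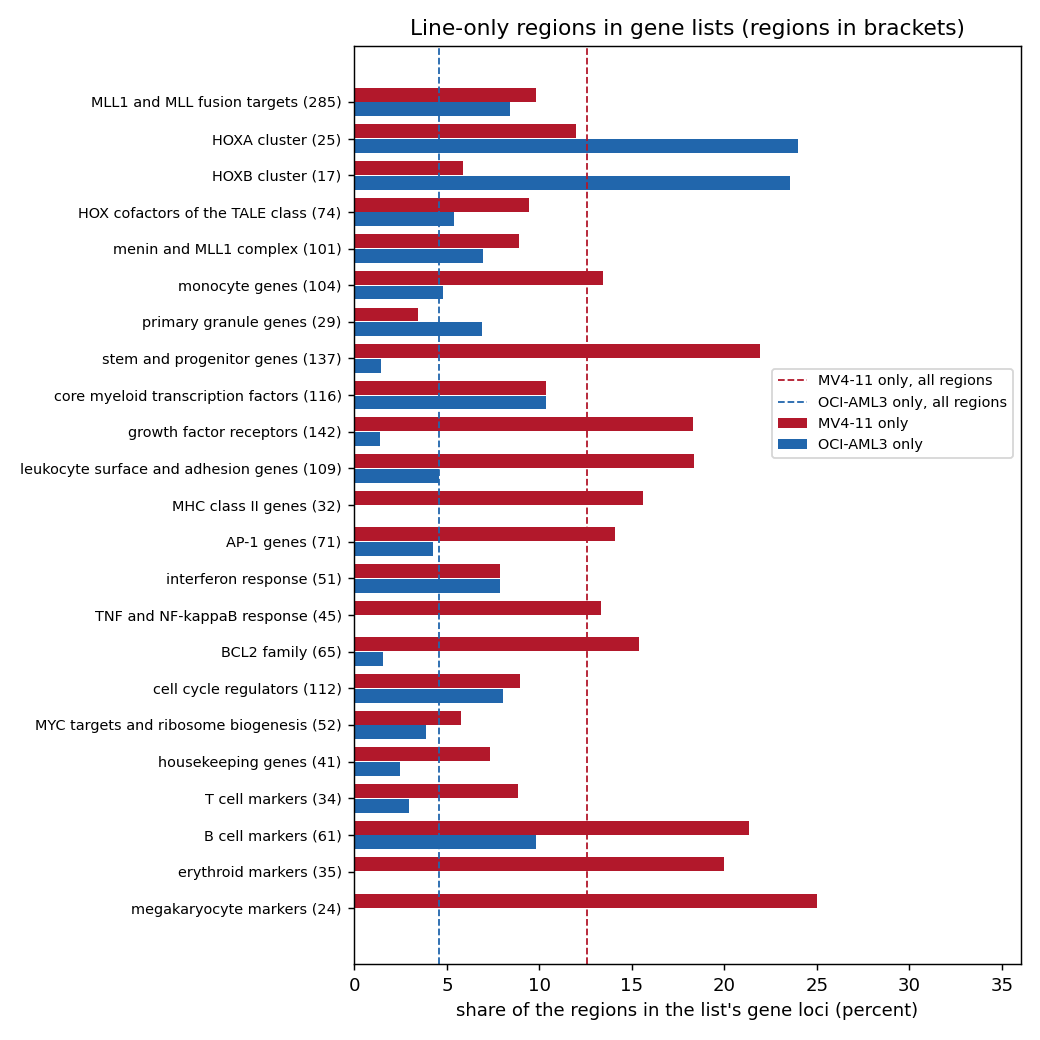
Share (percent) of the regions in the loci of each gene list that were MV4-11-only or OCI-AML3-only, with the number of regions in brackets and dashed lines at the shares of all regions. OCI-AML3-only bars are longer than MV4-11-only bars for the HOXA and HOXB clusters and primary granule genes, equal for interferon response and core myeloid transcription factors, and shorter for the others.

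Stem and progenitor genes had 30 MV4-11-only regions (21.9%) and 2 OCI-AML3-only regions (1.46%) among 137. MSI2, a translational regulator that binds RNA, held 11 of the 30 and none of the 2, the strongest lying 153 kb into the gene (chr17:57408429-57408800, folds of 13 and 10.0 in MV4-11). PRDM16, a zinc finger regulator of stem cells, held 9, and its strongest region (chr1:3312887-3313589) had folds of 11.6 and 8.67 in MV4-11. None of the 9 had a peak in the full OCI-AML3 lists, and the PRDM16 promoter was not called in any control. KIT, the stem cell factor receptor, held 3 (folds of 6.24 to 9.93). MSI2 and PRDM16 together thus held most of the 30. The promoter of ERG, an ETS factor of stem cells, was OCI-AML3-only after the cut (5.94 and 7.28), with peaks of 4.21 and 4.01 in the full MV4-11 lists.

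Growth factor receptors had 26 MV4-11-only (18.3%) and 2 OCI-AML3-only regions (1.41%) among 142, with 7 and 1 in IGF1R, 6 and 0 in FLT3 and 3 and 0 each in KIT and TGFBR2. Leukocyte surface and adhesion genes had 20 (18.3%) and 5 (4.59%) among 109, with 5 and 0 in CD44, the hyaluronan receptor, and 4 and 1 in PTPRC. A region in the locus of CD47, the signal against phagocytosis, was stronger in MV4-11 (15.2 and 15.9 against 6.12 and 6.60 in OCI-AML3, shift 1.84, SE 0.408, limma adjusted p = 0.0447).

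Monocyte genes had 14 MV4-11-only (13.5%) and 5 OCI-AML3-only regions (4.81%) among 104, shares close to those of every region. CD86, a costimulatory ligand, held 4 of the 14 and had an MV4-11-only promoter (6.34 and 11.5), with a weak peak of 3.30 in the full list of OCI-AML3 control 2. ITGAX, the CD11c integrin, held 3. The promoter region of LY96, the partner of the endotoxin receptor, was stronger in MV4-11 (12.5 and 18.3 against 4.52 and 6.07 in OCI-AML3, shift 2.40, SE 0.501, limma adjusted p = 0.0403). In the other direction, the promoters of the calcium-binding protein S100A9 (5.51 and 4.34) and the proteoglycan VCAN (3.84 and 5.18) were open in OCI-AML3 only, VCAN with no peak in the full MV4-11 lists. Of the primary granule genes, MPO was MV4-11-only and ELANE, neutrophil elastase, OCI-AML3-only (3.17 and 6.87) after the cut.

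MHC class II genes had 5 MV4-11-only and no OCI-AML3-only regions among 32 (15.6% MV4-11-only, against 12.6% of every region), 4 of them in CIITA, the master regulator of the class. The TNF and NF-kappaB list had 6 and 0 among 45, an MV4-11-only share of 13.3% that is near that of every region, with 3 in RELB. Core myeloid transcription factors had 12 and 12 among 116 (10.3% each, against 12.6% and 4.59% of every region). Within that list ETV6, an ETS repressor, had no MV4-11-only and 3 OCI-AML3-only regions and a region stronger in OCI-AML3 (6.77 and 6.20 in MV4-11, 9.02 and 11.1 in OCI-AML3, shift −1.86, SE 0.417, limma adjusted p = 0.0463), and IKZF1, a lymphoid and myeloid zinc finger factor, had 3 and 0. The IRF4 promoter was MV4-11-only (5.28 and 5.88) with no peak in the full OCI-AML3 lists, whereas a region 17 kb into that locus (chr6:408644-408863) was OCI-AML3-only (9.05 and 7.17) with no peak in the full MV4-11 lists.

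BCL2 family genes had 10 MV4-11-only and 1 OCI-AML3-only regions among 65 (15.4% and 1.54%, against 12.6% and 4.59% of every region). The promoter of BID, a pro-apoptotic activator, was open in MV4-11 only (5.31 and 4.91). The promoter of BCL2L11, which encodes the pro-apoptotic protein BIM, was stronger in OCI-AML3 (5.56 and 5.36 in MV4-11, 7.41 and 9.09 in OCI-AML3, shift −1.97, SE 0.408, limma adjusted p = 0.0390). In the same gene a region 1.3 kb from the start was MV4-11-only (chr2:111122096-111122318, 5.26 and 4.62), with no peak in the full OCI-AML3 lists. AP-1 genes had 10 and 3 among 71, shares of 14.1% and 4.23% near those of every region, with 4 and 2 in MAF, where a further region was stronger in MV4-11 (15.4 and 20.7 against 6.73 and 5.28, shift 2.62, SE 0.520, limma adjusted p = 0.0372). Interferon response genes had 4 and 4 among 51 (7.84% each). The IFI44 promoter was MV4-11-only (6.25 and 6.72), and those of IFIT3 (7.44 and 9.95) and OAS3 (5.16 and 6.63) were OCI-AML3-only after the cut. IFIT3 and OAS3 had weaker peaks in both full MV4-11 lists.

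Cell cycle regulators had 10 and 9 among 112 (8.93% and 8.04%, against 12.6% and 4.59% of every region). The TALE class of HOX cofactors had 7 and 4 among 74 (9.46% and 5.41%), and the menin and MLL1 complex 9 and 7 among 101 (8.91% and 6.93%). MYC targets and ribosome biogenesis had 3 and 2 among 52 (5.77% and 3.85%), and housekeeping genes 3 and 1 among 41 (7.32% and 2.44%). In the TALE class a region of PBX4 was stronger in MV4-11 (10.7 and 17.5 against 4.38 and 5.45, shift 2.27, SE 0.523, limma adjusted p = 0.0494). Of the 23 lists, 11 had an MV4-11-only share above that of every region and 12 an OCI-AML3-only share above it. The lists were chosen with earlier results of these data known, and their counts carry no test.

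Markers of other lineages often had no promoter peak in the 4 libraries. That was so for 9 of 12 T cell, 5 of 10 B cell, 11 of 12 erythroid and 7 of 10 megakaryocyte genes. For comparison, 6237 of 18783 protein-coding genes and 11 of 20 stem and progenitor genes had none. The promoters of CD28 (8.68 and 7.91), a T cell costimulator, and CD22 (9.31 and 12.8) and PAX5 (5.18 and 4.88), B cell genes, were open in MV4-11 only, and PAX5 had a peak of 3.75 in the full list of OCI-AML3 control 2. B cell loci had 13 MV4-11-only and 6 OCI-AML3-only regions among 61 (21.3% and 9.84%, against 12.6% and 4.59% of every region). Of these, EBF1, an early B cell factor, held 4 and 6, and BLNK 4 and 0. Erythroid loci had 7 (20%) and 0 among 35, all 7 in ANK1, and megakaryocyte loci 6 (25%) and 0 among 24, with 3 in VWF. In the locus of CD3G the promoter of the neighbouring gene UBE4A was stronger in MV4-11 (18.9 and 16.5 against 4.90 and 7.55, shift 2.54, SE 0.465, limma adjusted p = 0.0338).

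**Figure D4:**
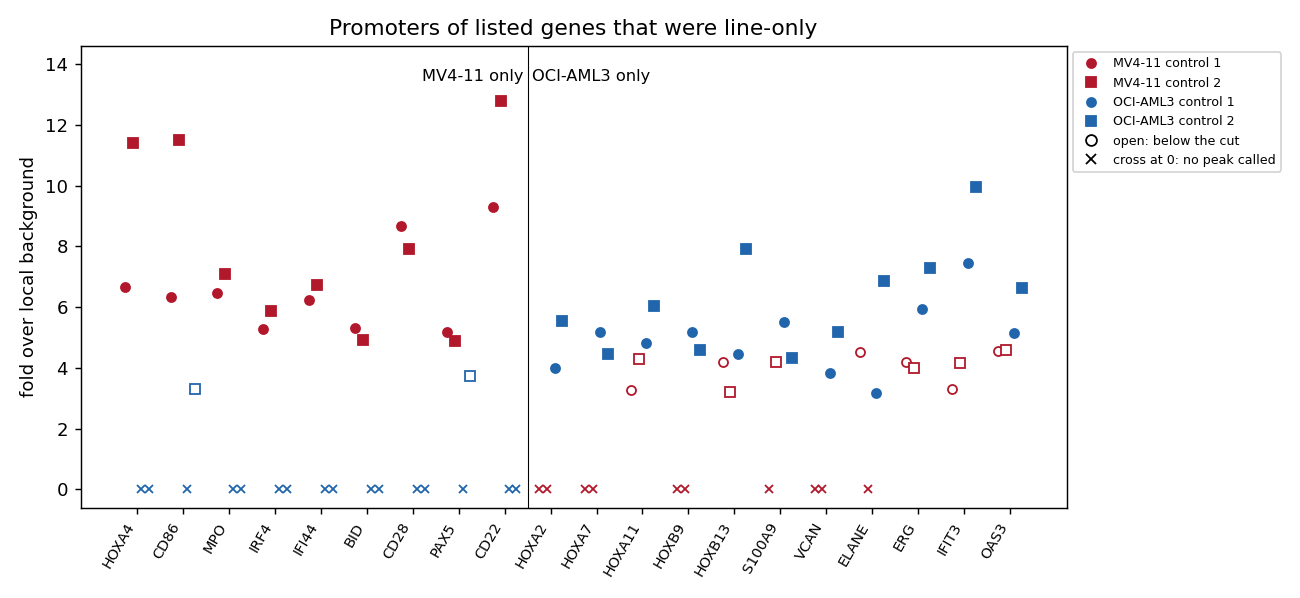
Deposited fold over the local background at the promoters of the 20 listed genes that were line-only, for each MV4-11 and OCI-AML3 control. Filled symbols are peaks kept after the cut, open symbols are peaks below it and crosses at 0 mark no peak. Among the 9 MV4-11-only genes the OCI-AML3 lists hold a weak peak for CD86 and PAX5, and among the 11 OCI-AML3-only genes the MV4-11 lists hold one for all but HOXA2, HOXA7, HOXB9 and VCAN.

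These 11 list regions past the limma test were close to the threshold. All 11 kept the call with the log2 fold in place of ranks, but when −log10 p was ranked in place of the fold, 6 of the 7 stronger in MV4-11 and all 4 stronger in OCI-AML3 lost it, and ranking within each chromosome took 4 and 2 of the calls. Without the cut 4 and 4 lost it, without MV4-11 control 1 it was 4 and 4, without MV4-11 control 2 it was 6 and 4, and without OCI-AML3 control 1 it was 1 and 0. In the treated libraries 5 of the 7 and 2 of the 4 had a value, and none passed the test.

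The line-only regions were not spread evenly over the chromosomes. MV4-11-only regions made up 20.1% of the regions on chromosome 13 (645 of 3214) and 15.4% on chromosome 19, against 12.6% over all and 9.87% on chromosome 7, the lowest. OCI-AML3-only regions ran between 2.68% on chromosome 19 and 5.85% on chromosome 21. Chromosome 8 held 53 of the 408 regions stronger in MV4-11, 20 of the 195 stronger in OCI-AML3 and 1838 of the 29122 tested, and the peak lists gave it 6.65% and 6.47% of the MV4-11 control peaks and 7.46% and 6.95% of the OCI-AML3 control peaks before the cut. With ranks taken within each chromosome 251 regions were stronger in MV4-11 and 119 in OCI-AML3.

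**Figure D5:**
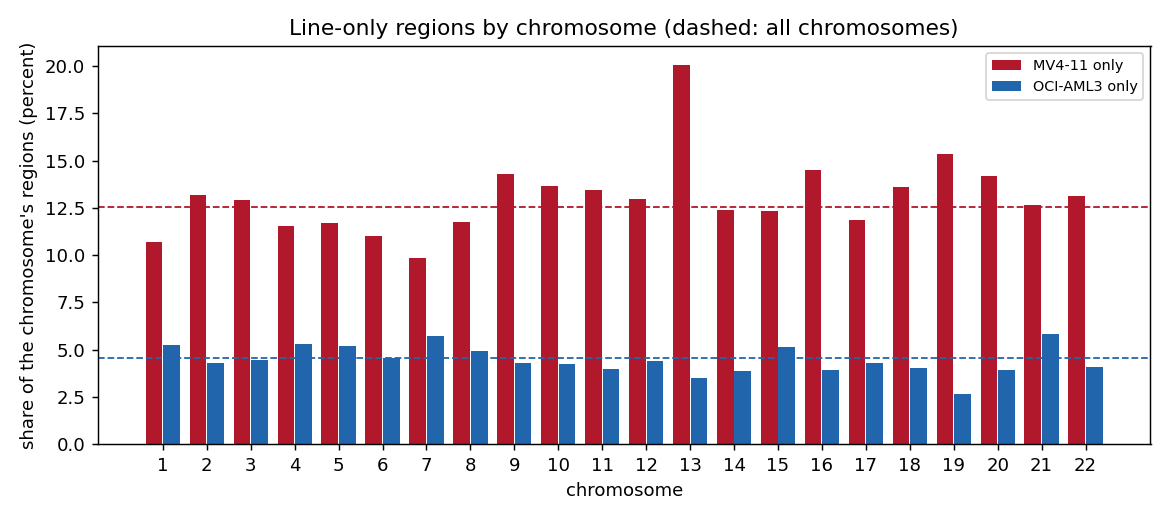
Share (percent) of each chromosome's regions that were MV4-11-only or OCI-AML3-only, with dashed lines at the shares over all chromosomes. Chromosome 13 stands highest for MV4-11-only regions at 20.1%, followed by chromosome 19 at 15.4%, where the OCI-AML3-only share is lowest at 2.68%.

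A stretch of chromosome 13 was without any OCI-AML3 control peak. Between positions 55815898 and 59318490, 3.50 Mb that hold the protocadherin gene PCDH17 and the PRR20 genes, the MV4-11 controls had 43 and 42 peaks and the OCI-AML3 controls none. In the 3 windows of 1 Mb from 56 to 59 Mb, the MV4-11 controls had 35 and 37 peaks and the OCI-AML3 controls 0 and 0. Treated MV4-11 cells had 36 and 48 and treated OCI-AML3 cells 2 and 0, and the MOLM13 controls had 15 and 20. Low peak numbers in this stretch were thus found in all 4 OCI-AML3 libraries.

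The reverse was seen on chromosome 1 from 189 to 190 Mb, where no protein-coding gene starts. The MV4-11 controls had 3 and 4 peaks there and the OCI-AML3 controls 30 and 37, treated MV4-11 cells had 1 and 4 and treated OCI-AML3 cells 33 and 26, and the MOLM13 controls had 0 and 2. On chromosome 2 from 5 to 6 Mb, around SOX11, a transcription factor of neural progenitors, the MV4-11 controls had 1 peak each and the OCI-AML3 controls 19 and 24, treated MV4-11 cells had 2 and 5 and treated OCI-AML3 cells 26 and 25, and the MOLM13 controls had 1 and 2. Of the 2712 windows of 1 Mb with a region, 4 had MV4-11-only regions and no OCI-AML3 peak after the cut, and 8 had the reverse. In the full lists the 4 windows still had no OCI-AML3 control peak, whereas each of the 8 had an MV4-11 control peak.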

How the data were processed

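Bulk ATAC-seq lists of 4 control libraries were used, and those of the other libraries only where named. Per the labels, the authors' tools for hg38 were MACS2 2.1.0 for peaks, Bowtie 1.1.2, Trimmomatic 0.33, bcl2fastq 2.17 and deepTools. Their supplementary methods name TopHat2 as the aligner. The shift of read ends, duplicates and the peak threshold are not given in the sources used here. Peaks were called in each library separately. The deposited ratio (column 7) is the fold of summit reads over local background, the deposited −log10 p and −log10 q (columns 8 and 9) are those of the summit, and the deposited score is a whole number made from −log10 q. None was normalised between libraries. Sequencing totals were not used. Summit reads were recovered from fold and −log10 p, within a tolerance of 0.001, for at least 99.99% of the peaks of the 4 lists. Such reads are not independent molecules, and p-values measure the spread between these libraries, which may be technical.

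Peaks of chromosomes 1 to 22 were cut, merged and compared as described. Ranks were tested in regions called in all 4 libraries with limma 3.58.1 in R 4.3.3 (no covariate, two-sided, Benjamini-Hochberg), and merging and limma were tested on simulated data. The authors' methods give no test for this comparison. Gene positions came from RefSeq on GRCh38.p14, with 31313 of 36917 protein-coding and lncRNA genes given a strand, and a locus ran 5 kb past both ends of a gene. A region took the name of the promoter it overlaps, else of the locus that holds it, else of the nearest start site. Named items were the 10 strongest line-only regions of each line by the lower −log10 p of its 2 libraries, the 10 largest shifts past the test in each direction, the 10 strongest line-only protein-coding promoters of each line, list genes with a line-only promoter or a promoter past the test, the HOXA, HOXB and MLL target genes, and KMT2A, AFF1, NPM1, MEN1 and MEIS1. Other list loci, and the sequences printed, were chosen after their values were seen. The 23 lists covered 314 genes with a position. The comparison and the lists were chosen with earlier results of these data known. Sequence outside promoters was not used, and 1 item of the named genes is not reported here. Alternatives covered the cut, the threshold, the overlap, the promoter window, the value ranked, the replicate block and each replicate left out.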

Additional observations from a re-analysis of the deposited data

How the results depend on the processing

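Without the cut there were 36223 MV4-11-only and 3564 OCI-AML3-only regions, and 1155 and 329 such promoters. A cut to 40000 peaks gave 7506 MV4-11-only regions and 355 MV4-11-only promoters, and 76 regions stronger in OCI-AML3. A −log10 q of at least 5 gave 6143 MV4-11-only regions, 16947 regions called in all 4 libraries, 253 and 60 regions stronger in MV4-11 and in OCI-AML3, and 365 MV4-11-only promoters. The treated libraries gave 143 and 47 stronger regions, ranks of −log10 p gave 107 stronger in MV4-11, the log2 fold gave 371 stronger in OCI-AML3, and ranks within each chromosome gave 251 and 119. The overlap of 50 bp, the intensity trend in limma and the promoter window of 500 bp moved no count by over 1.5 times. Leaving out 1 replicate gave 21305 to 27594 MV4-11-only and 7366 to 37092 OCI-AML3-only regions, 30915 to 42014 called in all libraries left, 68 to 2077 stronger in MV4-11, 8 to 1095 stronger in OCI-AML3, and 780 to 1024 and 828 to 1217 line-only promoters. Fewer libraries must agree in such a count, and the lone library is assumed to vary like the other line. Without OCI-AML3 control 1 the cut also rose from 69119 to 92554 peaks per library. The replicate numbers are not paired by the labels (correlation of the replicate differences between lines 0.019), and the fit with a replicate block called 804 and 377 regions, which held all 408 and 195 calls made without it. Among named regions and promoters, only the UBE4A promoter region in the CD3G locus reversed, with a shift of −0.30 in the treated libraries (limma adjusted p = 0.851). Causes were not tested. The median peak rested on 9 to 13 summit reads, and what depth adds to the differences was not tested.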
